A study of Xenopus laevis with 54 samples.

Results

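Cyclins, the Cdks (cyclin-dependent kinases) they activate, the Cdk inhibitors that restrain these kinases and the small Cks adaptors were followed through blastula development in the frog Xenopus laevis. All rows whose name is that of a cyclin A, B, D or E gene, a numbered Cdk, a Cdkn1 or Cdkn2 inhibitor, cks1b or cks2 were taken, which gave 61 of the 50489 genes of the deposited table. They carry 36 gene symbols, 25 of them with both an L and an S copy, the pair of gene copies that the species keeps from its doubled genome. There were 21 cyclins, 27 Cdks, 9 Cdk inhibitors and 4 Cks genes, and 59 of the 61 names were found, as protein-coding genes, in RefSeq's annotation of Xenopus_laevis_v10.1.

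The embryos were wildtype. They were injected in the 1-cell stage with 10 nl of 50 mM EU (5-ethynyl uridine, a uridine analog that enters newly made RNA), to about 0.5 mM in the embryo, and were collected as blastulae 5, 6, 7, 8 and 9 hours post fertilization (hpf). EU-labelled RNA was biotinylated and caught on streptavidin beads (bead RNA), what was not caught is the flowthrough, and total RNA was not divided. Unfertilized eggs, which received no EU, gave maternal RNA. In the first of 2 experiments, replicates 1 and 2 were sampled hourly as bead, flowthrough and total RNA. In the second, replicates 3 and 4 were sampled hourly as bead and flowthrough, but as total RNA only at 5 hpf, and the 2 egg libraries belong to it. Capture from embryos without EU was not analysed here, so the level that beads hold without labelling is not known.

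A cyclin gives its Cdk activity and target choice, Cdk1 with A and B cyclins drives mitosis, Cdk2 with E and A cyclins drives DNA replication, and Cdk4 and Cdk6 with D cyclins act on the Rb protein at the start of the cycle. Inhibitors of the Cdkn1 family bind cyclin-Cdk complexes, while those of the Cdkn2 family bind Cdk4 and Cdk6. Frog embryos cleave rapidly on maternal messages, with no gap phases, and lengthen their cycles at the midblastula transition, when the embryo's own genes are switched on. Several numbered Cdks act in transcription instead: Cdk7, Cdk9, Cdk12 and Cdk13 phosphorylate RNA polymerase II, and Cdk8 belongs to Mediator.

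The values are rounded counts that were normalized between libraries by the submitters, so they are relative to the other RNA of a library and not amounts per embryo. In whole embryos, fewer cells with a message and less of it per cell cannot be told apart. The normalized values of a library summed to between 7376513 and 15200969, and original read depths are not known. The 10 bead libraries of experiment 2 stood apart, with 12814 to 18990 genes above 0, against 23212 to 28348 genes in the 10 bead libraries of experiment 1. Of the 45 members with an egg mean of 50 or more, 14 were at 0 in bead replicate 4 and 10 in bead replicate 3 at 9 hpf, and none was at 0 in any flowthrough, total or experiment 1 bead library. A list of 17 zygotic marker genes summed to 12895 to 13553 in total RNA at 9 hpf, against 6 to 15 in total RNA at 5 hpf and 5 to 7 in eggs. Follicle and blood markers, 16 rows of which 9 were at 0 in both 9 hpf total libraries, summed to 90 to 203 in total RNA at 9 hpf, against 42 to 182 at 5 hpf. Of their 2 rows tested there 1 was called higher, and their part in the results was not tested. The series describes replicates as separate clutches. At 5 hpf, however, the total RNA of replicates 1 and 3 and that of replicates 2 and 4 deviated together from their experiment's mean (r = 0.75 across 16769 genes). Within an experiment the 2 deviations are mirror images (r = -1), so these 2 pairs amount to 1 observation. The 4 libraries may thus come from fewer than 4 independent sources, and p-values then measure in part technical spread.

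Most members were present in the egg. The egg mean was 50 or more for 19 cyclins, 19 Cdks, 4 inhibitors and 3 Cks genes. It lay between 10 and 50 for cdk16.S, cdkn1a.L, cdkn2c.L and cks1b.S, and under 10 for 12 members, among them both ccnd1 copies, cdkn1a.S and both cdkn2b copies. Levels are not compared between genes, because gene lengths were not used. From egg to 5 hpf no member passed the test in total RNA in either direction, of 55 tested. Here and below, passing means an adjusted p (limma, Benjamini-Hochberg over all genes tested) under 0.05 with a change of at least 2-fold, a log2 change beyond 1 or -1. At an unadjusted p under 0.05, 4 members were higher and 3 lower at 5 hpf, as were 1186 and 1608 of the 21534 genes tested. Of all genes, 0.237% were called higher and 0.283% lower. Among the members higher at unadjusted p was ccnd1.S, low in value with an egg mean of 1 (log2 2.62 ± 0.87, adjusted p = 0.227). The largest drops in value included cdkn1a.L, with 7, 3, 6 and 6 at 5 hpf, against 21 and 27 in eggs (log2 -1.83 ± 0.47 SE, adjusted p = 0.126). The B-type cyclin ccnb3.S had 206, 418, 207 and 345 at 5 hpf, against 477 and 635 in eggs (adjusted p = 0.482). Eggs belong to experiment 2 alone, so with the experiment term the changes from egg to 5 hpf are those of replicates 3 and 4.

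Between 5 and 9 hpf, a small group of maternal messages fell and a smaller group of inhibitor, cyclin and Cdk messages rose. In the flowthrough, the RNA that beads did not catch, 8 of 50 tested members fell and 0 rose at 9 hpf, with a median log2 change of -0.25 against -0.04 over all 19277 genes tested. Of all genes, 3.94% were called lower and 0.202% higher there, so the share of members that fell exceeded the share of all genes, with no test of that excess. Total RNA at 9 hpf comes from experiment 1 alone, so with the experiment term its changes are those of replicates 1 and 2 at both times. In total RNA 5 of 55 members fell and 3 rose, while 2% of genes were called lower and 6.25% higher, and the median of the members was -0.07 against 0.04 over all genes. On beads 5 of 52 members fell and 4 rose, while 1.43% of genes were called lower and 5.83% higher, and the median was -0.86 against -0.33. In total RNA and on beads the share of members that rose was near that of all genes, so the number of risers is not a result about the members. All members called lower in the flowthrough and all called lower in total RNA had egg means of 50 or more. So did most members tested, 45 of 50 in the flowthrough and 45 of 55 in total RNA.

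**Figure D1:**
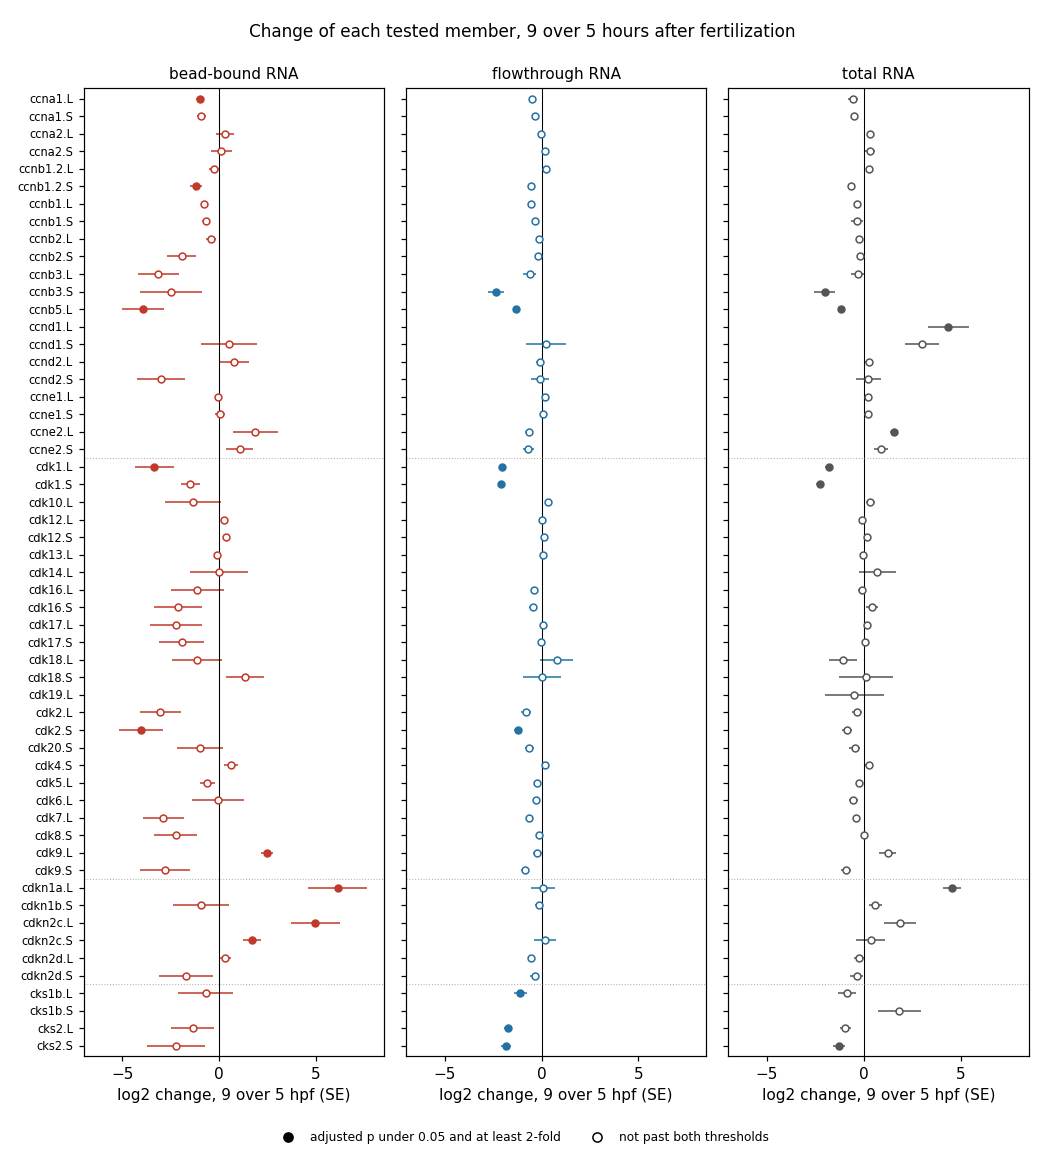
Log2 change at 9 hpf over 5 hpf for each tested member (rows, in the order cyclins, Cdks, inhibitors, Cks) in bead, flowthrough and total RNA, with bars of 1 SE and filled points for members past both thresholds. The 8 filled flowthrough points all lie below 0, and bead bars are wider than flowthrough bars for most members.

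Both copies of cdk1, the mitotic kinase, fell in flowthrough and total RNA. In the flowthrough, cdk1.L had 110, 238, 151 and 174 at 9 hpf, against 631, 689, 653 and 686 at 5 hpf (log2 -2.03 ± 0.18 SE, adjusted p = 2.19e-07). The S copy had 105, 142, 111 and 143 in the flowthrough at 9 hpf, against 483, 536, 520 and 587 at 5 hpf (log2 -2.09 ± 0.14, adjusted p = 5.93e-09). All 4 libraries of 9 hpf lay below all 4 of 5 hpf for both copies. At 8 hpf both had already passed the test, with log2 changes of -1.23 for cdk1.L and -1.33 for cdk1.S, when 4 members and 0.565% of all genes were called lower. In total RNA cdk1.L had 192 and 230 at 9 hpf, against 760, 700, 796 and 821 at 5 hpf (log2 -1.79 ± 0.19, adjusted p = 0.000159). For cdk1.S total RNA held 128 and 155 at 9 hpf, against 614, 751, 497 and 698 at 5 hpf (log2 -2.26 ± 0.21, adjusted p = 7.33e-05). In eggs cdk1.L stood at 792 and 900 and cdk1.S at 715 and 852, near their total RNA values at 5 hpf.

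Of cdk2, the S phase kinase, the S copy fell in the flowthrough. There cdk2.S had 80, 119, 90 and 131 at 9 hpf, against 217, 269, 224 and 273 at 5 hpf (log2 -1.24 ± 0.17, adjusted p = 2.44e-05), with no overlap between the times. The L copy, with 187, 286, 128 and 165 at 9 hpf against 278, 343, 313 and 335 at 5 hpf, stayed under 2-fold (log2 -0.78 ± 0.25, adjusted p = 0.0372). In total RNA neither cdk2 copy passed the test. The kinases that pair with D cyclins did not pass, at log2 0.18 ± 0.14 for cdk4.S and -0.28 ± 0.18 for cdk6.L in the flowthrough, and cdk6.S was at 4 or less in each total and egg library.

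The Cks proteins are small partners that dock Cdks on phosphorylated targets. In the flowthrough, where 3.94% of all genes were called lower, 3 of the 3 tested Cks messages fell. The other Cks message, cks1b.S, was too low to be tested there. In total RNA its value was positive and did not pass (log2 1.83 ± 1.11, adjusted p = 0.41). For cks2.L the flowthrough held 44, 28, 67 and 76 at 9 hpf, against 128, 176, 181 and 197 at 5 hpf (log2 -1.73 ± 0.21, adjusted p = 9.10e-06). For cks2.S it held 58, 43, 51 and 53 at 9 hpf, against 174, 197, 136 and 242 at 5 hpf (log2 -1.83 ± 0.25, adjusted p = 3.72e-05). Neither copy's times overlapped. The message cks1b.L had 19, 22, 26 and 16 at 9 hpf, against 59, 40, 43 and 39 at 5 hpf (log2 -1.09 ± 0.32, adjusted p = 0.0196). That call was lost without 5 hpf replicate 1 (log2 -0.95, adjusted p = 0.0724) or without 9 hpf replicate 4 (log2 -0.97, adjusted p = 0.0586), and also at log2(value + 10) (-0.84), under quantile normalization (-0.86, adjusted p = 0.0747) and in each experiment alone. In total RNA cks2.S passed, with 80 and 135 at 9 hpf against 216, 300, 253 and 334 at 5 hpf (log2 -1.28 ± 0.31, adjusted p = 0.0214). The total RNA call was lost without 5 hpf replicate 2 or 9 hpf replicate 1, over a range of log2 -1.66 to -0.91 with 1 library left out. The total RNA value of cks2.L was log2 -0.95 ± 0.27, just under 2-fold (adjusted p = 0.0434).

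Among the B cyclins, the partners of Cdk1 in mitosis, ccnb5.L and ccnb3.S fell. In the flowthrough ccnb5.L had 669, 570, 654 and 570 at 9 hpf, against 1592, 1555, 1493 and 1485 at 5 hpf (log2 -1.32 ± 0.09, adjusted p = 5.17e-09), and in total RNA 665 and 746 against 1488, 1700, 1071 and 1000 (log2 -1.17 ± 0.12, adjusted p = 0.000155). Without the experiment term the total RNA change of ccnb5.L was -0.86, under 2-fold. The flowthrough call came at 9 hpf and not at 8 hpf: flowthrough values were 1487, 1392, 1642 and 1439 at 7 hpf and 1322, 1250, 1198 and 1101 at 8 hpf, before those of 9 hpf. The message ccnb3.S had 39, 48, 20 and 55 in the flowthrough at 9 hpf, against 162, 246, 133 and 277 at 5 hpf (log2 -2.34 ± 0.41, adjusted p = 0.000522). It had passed at 8 hpf, with a log2 change of -1.63 (adjusted p = 0.032). In each experiment alone the 9 hpf flowthrough call of ccnb3.S was lost (-2.18, adjusted p = 0.0912, in experiment 1). In total RNA ccnb3.S had 71 and 72 at 9 hpf, against 206, 418, 207 and 345 at 5 hpf (log2 -2.02 ± 0.55, adjusted p = 0.041). That total RNA call was lost in 5 of 6 fits that left out 1 library, all but the fit without 5 hpf replicate 1, over log2 -2.53 to -1.51 and adjusted p up to 0.269.

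**Figure D2:**
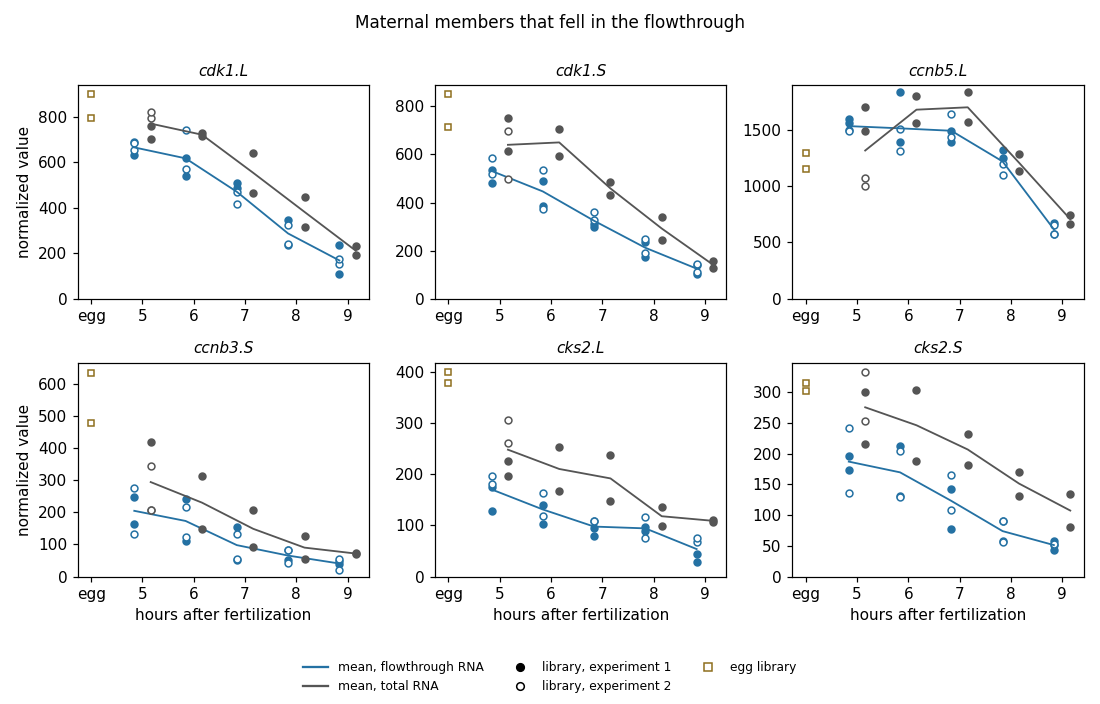
Normalized value (linear axis from 0) in eggs and at 5 to 9 hpf for 6 maternal members, with 1 point per library and lines through the means of flowthrough and total RNA. For cdk1.L and cdk1.S the flowthrough libraries of 9 hpf, at 110 to 238 and 105 to 143, lie under all flowthrough libraries of 5 hpf, and ccnb5.L leaves its plateau after 7 hpf.

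The main mitotic cyclins moved by less than 2-fold in the flowthrough. For ccnb1.L the flowthrough held 1367, 1138, 1213 and 1189 at 9 hpf, against 1838, 1797, 1709 and 1889 at 5 hpf, a change of log2 -0.56 ± 0.06 (adjusted p = 8.71e-07) that was precise but small. The S copy of ccnb1.2 had a like value of -0.56 ± 0.06 (adjusted p = 1.21e-06), while its L copy stood at 0.21 ± 0.11 (adjusted p = 0.202). Both ccnb2 copies had values between -0.18 and -0.13, with adjusted p over 0.05. With the replicate number as a block, which pairs same-numbered libraries, these changes were the same in size and more precise. Adjusted p was then 0.000104 for ccnb1.2.L, 0.0213 for ccnb2.L and 0.00674 for ccnb2.S. Of the A cyclins, which act in S phase and mitosis, ccna1.L had 5965, 4788, 5410 and 4195 in the flowthrough at 9 hpf, against 9176, 6657, 7024 and 6036 at 5 hpf (log2 -0.50 ± 0.15, adjusted p = 0.0283). The A cyclin of later cells, ccna2, was also maternal here, with egg means of 1138 for L and 1006.5 for S. Its flowthrough values were -0.03 ± 0.13 for L and 0.17 ± 0.10 for S (adjusted p = 0.942 and 0.279). With the replicate block adjusted p was 0.916 for L and 0.014 for S.

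On beads, 3 cyclins and 2 Cdks fell between 5 and 9 hpf. The A cyclin ccna1.L had 4818, 3989, 2962 and 1969 on beads at 9 hpf, against 7642, 5933, 8310 and 5029 at 5 hpf (log2 -1.02 ± 0.20, adjusted p = 0.00118), with no overlap. Its change lay near the 2-fold limit and passed under it without 5 hpf replicate 1, 5 hpf replicate 3 or 9 hpf replicate 4, over log2 -1.17 to -0.81, and in experiment 1 alone (-0.62, adjusted p = 0.104). The B cyclin ccnb1.2.S had 940, 830, 481 and 356 at 9 hpf, against 2099, 1965, 1383 and 640 at 5 hpf (log2 -1.19 ± 0.31, adjusted p = 0.016). Its call was lost without 5 hpf replicate 3 (log2 -0.97, adjusted p = 0.0898).

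For the other members called lower on beads, libraries of experiment 2 included values at or near 0 at 9 hpf. For ccnb5.L beads held 541, 563, 66 and 0 at 9 hpf, against 1707, 1499, 1130 and 398 at 5 hpf (log2 -3.95 ± 1.1, adjusted p = 0.0325), and the call was lost without any of the 4 libraries of 5 hpf (log2 -4.63 to -2.19 over all 8 fits that left out a library, adjusted p up to 0.101). For cdk1.L they held 129, 191, 2 and 198 at 9 hpf, against 648, 584, 519 and 846 at 5 hpf (log2 -3.36 ± 1.01, adjusted p = 0.041). That call was kept only without 9 hpf replicate 2 or 9 hpf replicate 4, and in the other 6 fits that left out a library adjusted p reached 0.132, with log2 from -4.12 to -1.96 over all 8. For cdk2.S they held 138, 170, 0 and 0 at 9 hpf, against 273, 300, 123 and 161 at 5 hpf (log2 -4.02 ± 1.14, adjusted p = 0.0289). This call was lost without 5 hpf replicates 2, 3 or 4 or 9 hpf replicates 3 or 4, with adjusted p up to 0.0967 and log2 from -4.96 to -3.14. In experiment 1 alone, where no library was at 0 for them, cdk1.L, cdk1.S, ccnb5.L, ccnb1.2.S and cks2.S were the 5 members called lower on beads. The share of all genes called lower in that fit is not given here, so the 5 are not read as a result about the members. In experiment 1 alone ccnb5.L had log2 -1.53 ± 0.11 (adjusted p = 2.17e-05) and cdk1.L -1.96 ± 0.27 (adjusted p = 0.00094). The change of cdk2.S was -0.90 ± 0.24 (adjusted p = 0.0376), under 2-fold. In experiment 2 alone ccnb5.L (-6.36, adjusted p = 0.0505), cdk1.L (-4.76, adjusted p = 0.197) and cdk2.S (-7.15, adjusted p = 0.115) were not called. Without the experiment term, of the 9 bead calls only ccna1.L (lower), cdk9.L and cdkn1a.L (both higher) were kept.

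The messages that rose belonged to cell cycle inhibitors, to a D and an E cyclin and to cdk9. The inhibitor cdkn1a.L, which encodes p21, the inhibitor that p53 induces in many vertebrate cells, had 201, 290, 420 and 726 on beads at 9 hpf, against 17, 8, 4 and 0 at 5 hpf (log2 6.10 ± 1.51, adjusted p = 0.0115). At 8 hpf beads held 103, 86, 97 and 0. In total RNA cdkn1a.L had 122 and 142 at 9 hpf, against 7, 3, 6 and 6 at 5 hpf (log2 4.55 ± 0.47, adjusted p = 0.000135), and 38 and 53 at 8 hpf (log2 3.02, adjusted p = 0.00325). In total RNA at 8 hpf 2 members were called higher and 1 lower, cdk1.S, of 4.09% and 0.255% of all genes. The flowthrough stayed at 1 to 13 in all 20 libraries. The bead call was lost without 5 hpf replicate 4 (log2 5.42, adjusted p = 0.055). All bead libraries of 9 hpf reached the 10 that the filter on low values asks for, and at 5 hpf only replicate 1 did. Entry of cdkn1a.L into the bead test thus leaned in part on times at which it is high. Its S copy was near absent, with 7, 14, 82 and 0 on beads at 9 hpf and at most 9 in total RNA, and was below the filter on low values.

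The Cdk4 and Cdk6 inhibitor cdkn2c, which encodes p18, rose on beads in both copies. Its L copy had 105, 61, 118 and 1286 at 9 hpf, against 5, 0, 0 and 186 at 5 hpf (log2 4.94 ± 1.26, adjusted p = 0.0145). It was among the 2 members called on beads at 8 hpf, when 3.16% of all genes were called higher, with 84, 85, 281 and 229 (log2 4.67, adjusted p = 0.0406). Replicate 4 was high at both ends, so the groups overlap, and without 9 hpf replicate 4 the value was log2 4.29 (adjusted p = 0.0577). The 9 hpf call was also lost without 5 hpf replicate 2 (4.41, adjusted p = 0.0605) and 5 hpf replicate 3 (3.67, adjusted p = 0.0774). All bead libraries of 8 and 9 hpf reached the filter's 10, and at 5 hpf only replicate 4 did. Entry of cdkn2c.L into the bead test thus leaned on times at which it is high. In total RNA cdkn2c.L had 63 and 34 at 9 hpf, against 16, 9, 16 and 9 at 5 hpf (log2 1.86 ± 0.84, adjusted p = 0.225).

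The S copy of cdkn2c had 346, 173, 2311 and 1868 on beads at 9 hpf, against 185, 65, 516 and 379 at 5 hpf (log2 1.69 ± 0.47, adjusted p = 0.026). Replicates 3 and 4 stood above 1 and 2 at every time on beads, but not in the flowthrough, where all values of cdkn2c.S lay between 49 and 242. That call was kept without 5 hpf replicate 1 or 9 hpf replicate 2 and lost in the other 6 fits that left out a library, with log2 from 1.48 to 2.02 and adjusted p up to 0.0905, and it was lost under quantile normalization (1.62, adjusted p = 0.0627). In experiment 1 alone it was 1.15 (adjusted p = 0.435) and in experiment 2 alone 2.23 (adjusted p = 0.0477). In total RNA cdkn2c.S had 420 and 168 at 9 hpf, against 425, 101, 406 and 168 at 5 hpf (adjusted p = 0.9). Of the remaining inhibitors, cdkn2d.L and cdkn2d.S (p19) had total RNA values of -0.23 ± 0.27 and -0.37 ± 0.34, and cdkn1b.S (p27) 0.60 ± 0.32, none past the test.

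The kinase message cdk9.L, whose product releases paused RNA polymerase II, had the most precise bead rise among the members. Beads held 3031, 2360, 819 and 521 at 9 hpf, against 400, 460, 161 and 117 at 5 hpf (log2 2.44 ± 0.32, adjusted p = 1.11e-05), with no overlap. It passed from 7 hpf on, as the sole member then (log2 1.27 ± 0.32, adjusted p = 0.0477), when 1.25% of genes were called higher, and stood at 2.03 at 8 hpf. The call held without any 1 library, over log2 2.26 to 2.67. It was log2 2.64 in experiment 1 alone (adjusted p = 7.10e-06) and 2.24 in experiment 2 alone (adjusted p = 0.175). Total RNA held 1473 and 1843 at 9 hpf, against 479, 1018, 562 and 1073 at 5 hpf (log2 1.24 ± 0.44, adjusted p = 0.114). With the replicate number as a block, which pairs same-numbered libraries, the same total RNA change was 1.24 ± 0.20 (adjusted p = 0.00193). The flowthrough held 389, 496, 374 and 511 at 9 hpf, against 349, 652, 462 and 637 at 5 hpf, with overlap (log2 -0.21 ± 0.22, adjusted p = 0.608). With the block this flowthrough change was -0.21 ± 0.08 (adjusted p = 0.0399), under 2-fold.

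Among the cyclins of the G1 to S step, ccne2.L and ccnd1.L rose in total RNA. The E cyclin ccne2.L, a Cdk2 partner, had 490 and 369 in total RNA at 9 hpf, against 153, 139, 129 and 131 at 5 hpf (log2 1.54 ± 0.17, adjusted p = 0.000184), and 291 and 313 at 8 hpf (log2 1.04, adjusted p = 0.00383). Its flowthrough value was opposite in sign, with 80, 107, 76 and 68 at 9 hpf against 145, 141, 117 and 122 at 5 hpf (log2 -0.67 ± 0.16, adjusted p = 0.00662), which is under 2-fold. On beads it had 795, 651, 138 and 300 at 9 hpf, against 122, 133, 68 and 112 at 5 hpf, not overlapping but with a wide error (log2 1.85 ± 1.17, adjusted p = 0.373). In experiment 1 alone the bead change of ccne2.L was 2.49 ± 0.21 (adjusted p = 4.78e-05). The S copy had 902 and 609 in total RNA at 9 hpf, against 492, 319, 586 and 380 at 5 hpf (log2 0.90 ± 0.35, adjusted p = 0.156). With the replicate block its change was 0.90 ± 0.18 (adjusted p = 0.0033), under 2-fold. The other E cyclin, ccne1, is maternal and did not pass, at log2 0.23 ± 0.08 for L and 0.24 ± 0.12 for S in total RNA.

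The D cyclin ccnd1, the partner of Cdk4 and Cdk6, was near absent in eggs and at 5 hpf. Its L copy had 39 and 31 in total RNA at 9 hpf, against 0, 2, 3 and 0 at 5 hpf (log2 4.37 ± 1.04, adjusted p = 0.0198). The filter on low values asks for 10, which both 9 hpf libraries reached and no egg or 5 hpf library did. Its entry into the test thus leaned on the time at which it is high. With no filter the call was kept (adjusted p = 0.0171). That call was lost without 5 hpf replicate 1 or without either 9 hpf library, over log2 3.58 to 5.16 and adjusted p up to 0.143, and under quantile normalization (3.63, adjusted p = 0.0573). The S copy had 52 and 72 at 9 hpf, against 3, 14, 5 and 18 at 5 hpf (log2 3.01 ± 0.87, adjusted p = 0.0506), and with the replicate block it passed (3.01 ± 0.67, adjusted p = 0.0059). On beads the L copy held 49, 20, 93 and 0 at 9 hpf and 0 in all 4 libraries at 5 hpf, too low for the test. The S copy held 99, 62, 0 and 0 on beads at 9 hpf, against 1, 11, 0 and 68 at 5 hpf (log2 0.48 ± 1.44, adjusted p = 0.882). In experiment 1 alone that bead change was 4.02 (adjusted p = 0.0143), and in experiment 2 alone it was -3.05 (adjusted p = 0.588). The maternal D cyclin ccnd2 had total RNA values of 0.25 ± 0.18 for L and 0.23 ± 0.64 for S.

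**Figure D3:**
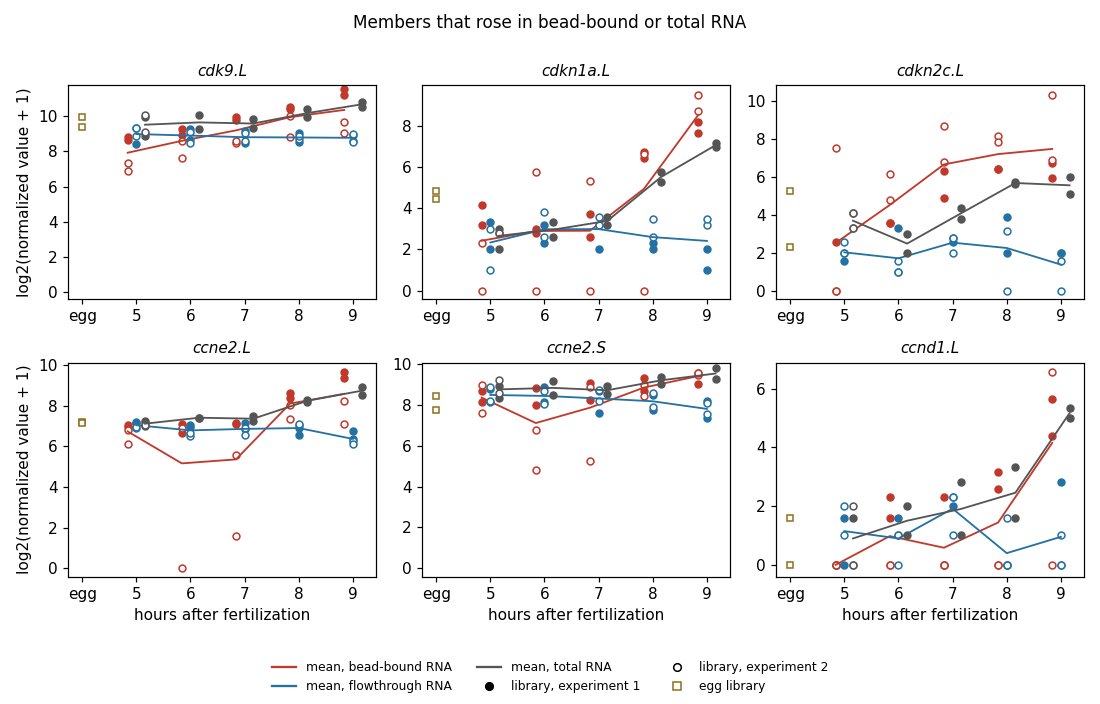
Value on the log2(normalized value + 1) scale in eggs and at 5 to 9 hpf for 6 members, with 1 point per library and lines through the means of bead, flowthrough and total RNA. Bead and total RNA means of cdkn1a.L leave the flowthrough after 7 hpf, and open points show that experiment 2 beads reach 0 for several members.

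The difference between the bead change and the flowthrough change was tested directly. It passed the test as positive for 3 of 52 members and as negative for 0, while 4.6% of all genes were called higher and 0.162% lower, with a median of -0.33 for the members and -0.22 over all genes. These were cdk9.L (2.65 ± 0.39), cdkn2c.L (5.59 ± 1.40) and cdkn1a.L (6.02 ± 1.62). In the flowthrough cdkn2c.L was too low to be tested and cdkn1a.L was low throughout. For both, the difference therefore mostly restates the bead change (4.94 for cdkn2c.L and 6.10 for cdkn1a.L). Entry of cdkn2c.L into this test leaned on the later bead libraries, in which it is high. The calls of cdk9.L and cdkn2c.L were kept without any 1 library, over log2 2.48 to 2.88 and 4.32 to 7.01. That of cdkn1a.L was lost without flowthrough replicate 1 of 5 or 9 hpf or bead replicate 4 of 5 or 9 hpf, over 5.34 to 6.62 and adjusted p up to 0.0618. In experiment 1 alone they had 2.76, 4.84 and 5.41, all called, and in experiment 2 alone 2.55, 6.34 and 6.64, none called.

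At 9 hpf 7 of 52 members were higher on beads than in the flowthrough, while 9.35% of all genes were. They were the inhibitors cdkn1a.L, cdkn2c.L, cdkn2c.S and cdkn2d.L, the cyclins ccne2.L and ccne2.S, and cdk9.L. Of these inhibitors cdkn1a.L and cdkn2c.L were called in experiment 1 alone, while for cdkn2c.S and cdkn2d.L bead and flowthrough libraries overlapped. For cdkn2c.S the value was 0.69 in experiment 1 (adjusted p = 0.76) and 4.46 in experiment 2 (adjusted p = 0.00118). For cdk9.L it was 2.60 in experiment 1 (adjusted p = 5.46e-05) and 0.58 in experiment 2 (adjusted p = 0.398). The value of cdkn1a.L was log2 6.11 ± 1.15, from 201, 290, 420 and 726 on beads against 1, 3, 8 and 10 in the flowthrough (adjusted p = 0.000125). For cdkn2c.L, beads held 105, 61, 118 and 1286 and the flowthrough 3, 3, 0 and 2 (log2 6.08 ± 0.99, adjusted p = 1.44e-05). For ccne2.S, beads held 767, 517, 708 and 758 and the flowthrough 290, 164, 271 and 190 (log2 1.61 ± 0.56, adjusted p = 0.0281), with no overlap. The call of ccne2.L (2.22 ± 0.86, adjusted p = 0.0443) was kept without bead replicate 3 and lost in the 7 other fits that left out a library, with adjusted p up to 0.11 and log2 from 1.98 to 2.38. In experiment 1 alone ccne2.L had 2.95 ± 0.21 (adjusted p = 5.3e-07), and in experiment 2 alone 1.49 ± 1.75 (adjusted p = 0.539). The call of ccne2.S was lost without bead replicates 3 or 4 or flowthrough replicates 2 or 4, with adjusted p up to 0.0869 and log2 from 1.39 to 1.90.

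The inhibitor cdkn2d.L was higher on beads in experiment 2, with 1583 and 1136 on beads against 162 and 232 in the flowthrough at 9 hpf. In experiment 1 it had 221 and 256 on beads against 135 and 153 in the flowthrough. The same held at 5 hpf for cdkn2d.L, with 824 and 958 on beads against 213 and 280 in the flowthrough of experiment 2, and 253 and 228 against 243 and 229 in experiment 1. The pooled 9 hpf value was log2 1.75 ± 0.26 (adjusted p = 3.02e-06), made up of 0.72 in experiment 1 and 2.78 in experiment 2. The transcription kinase cdk12.L showed a like split, with 5039 and 5448 on beads against 2217 and 2063 in the flowthrough of experiment 2, and 2300 and 2639 against 1969 and 2089 in experiment 1. Its pooled value was under 2-fold (0.79 ± 0.09).

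At 9 hpf 16 of 52 members were lower on beads than in the flowthrough, while 18.9% of all genes were. All 16 are maternal by their egg mean, as are 45 of the 52 tested. They were 6 cyclins, 9 Cdks and cks2.L. The most precise was ccna1.S, with 2727, 2269, 1241 and 691 on beads against 4990, 3825, 5391 and 3625 in the flowthrough (log2 -1.53 ± 0.19, adjusted p = 9.13e-08), no overlap. The next was ccnb2.L, with 1667, 1642, 608 and 255 on beads against 1804, 1747, 2018 and 2078 in the flowthrough (log2 -1.24 ± 0.18, adjusted p = 1.65e-06). Its value without bead replicate 4 was -0.98, under 2-fold. Within experiment 1 no member was called lower, and the median over all genes was 0.02. In experiment 2 that median was -1.5, and 16 members were called lower. They included cdkn1b.S (-5.12, adjusted p = 0.0454) and not cdk17.L (-4.94, adjusted p = 0.0566), so they are not the same 16. The share of all genes called lower in experiment 2 alone is not given here. In experiment 1 the sign itself changed for 7 of the 16 called over both experiments. The experiment 2 bead libraries are those with fewer genes above 0, and the part of this in the lower values was not tested.

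Of the 16 calls over both experiments, 4 held without any 1 library, those of ccna1.S, ccnb5.L, cdk2.S and cks2.L. The other 12 were lost without bead replicate 4 (ccnb2.L, ccnb2.S, ccnb3.L, cdk10.L, cdk17.L, cdk2.L, cdk20.S, cdk8.S and cdk9.S), bead replicate 3 (ccnd2.S, cdk17.S, cdk20.S, cdk7.L and cdk9.S) or a flowthrough library (replicates 2 and 4 for ccnb2.S, 1 and 2 for cdk9.S, 1 to 4 for cdk17.L). Over these fits adjusted p reached 0.0516 for cdk10.L to 0.509 for cdk17.L, apart from ccnb2.L, which fell short in fold alone. Without bead replicate 4 the number of members called lower was 8, and the share of all genes called lower in that fit is not given here. At 5 hpf 2 members, cdk9.L (log2 -1.06 ± 0.27, adjusted p = 0.0213) and cks2.L (-2.96 ± 0.74, adjusted p = 0.0167), were already lower on beads than in the flowthrough, as were 1.47% of all genes. For cdk9.L the 5 hpf libraries held 400 and 460 on beads against 349 and 652 in the flowthrough of experiment 1, and 161 and 117 against 462 and 637 in experiment 2. The groups overlapped in experiment 1.

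**Figure D4:**
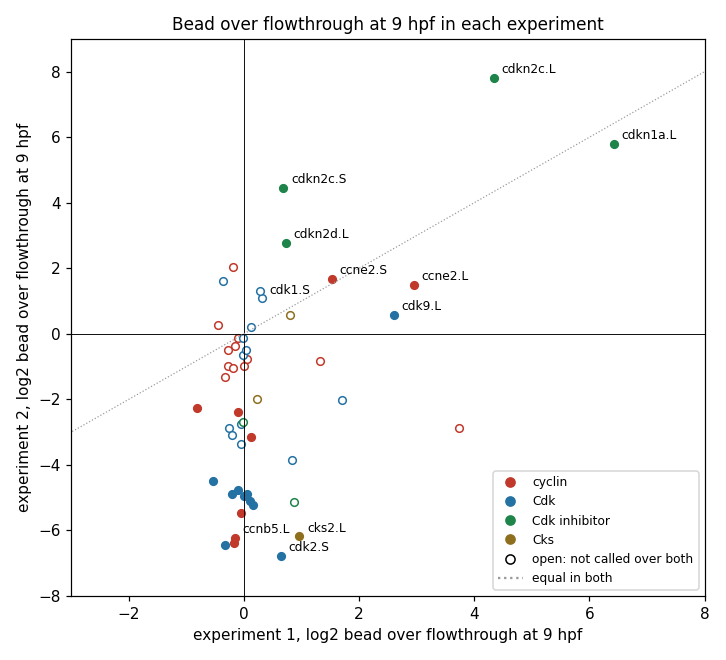
Log2 difference of bead over flowthrough RNA at 9 hpf for each member tested, in experiment 1 (horizontal) and experiment 2 (vertical), with filled points for members called over both experiments and a dotted line of equal values. The members ccne2.S and cdkn1a.L lie near that line, while all 16 members called lower lie lower in experiment 2 than in experiment 1, where they range from -0.81 to 0.96.

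L and S copies of a gene were compared by the difference of their changes, L minus S, between 9 and 5 hpf. In the flowthrough 1 of 23 pairs passed, ccnb3, as did 0.847% of all pairs in the direction of a higher L copy and 0.575% in the other. The S copy fell, as above, while the L copy had 137, 312, 125 and 221 at 9 hpf, against 240, 324, 241 and 356 at 5 hpf (log2 -0.62 ± 0.32, adjusted p = 0.201), so that the difference was 1.72 ± 0.21 (adjusted p = 0.000225). The call of the difference was kept without any 1 library. With the replicate block the L copy's change was -0.62 ± 0.11 (adjusted p = 1.09e-05), a fall under 2-fold. In total RNA ccnb3 was again the 1 pair of 24 to pass, at 1.70 ± 0.34 (adjusted p = 0.0426), with 1.18% of all pairs called higher for L and 0.78% lower. That total RNA call was lost without any 1 of its 6 libraries (log2 1.41 to 1.99, adjusted p 0.0689 to 0.238). For ccnb1.2 the difference was precise but under 2-fold, at 0.77 ± 0.10 in the flowthrough (adjusted p = 0.00026) and 0.97 ± 0.14 in total RNA (adjusted p = 0.00871). Its S copy had 1143, 1078, 1105 and 972 in the flowthrough at 9 hpf, against 1584, 1572, 1549 and 1617 at 5 hpf, and its L copy 2993, 2348, 2954 and 2444 against 2557, 2092, 2403 and 2203.

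On beads 0 of 24 pairs passed in limma, while 0.521% of all pairs were called higher for L and 0.383% lower, and at an unadjusted p under 0.05 there were 5 pairs higher for L and 0 lower, as were 384 and 376 of all 6531 pairs. The largest of these was cdk9 (5.24 ± 1.37, adjusted p = 0.091), whose S copy held 71, 36, 0 and 0 on beads at 9 hpf, against 92, 80, 14 and 54 at 5 hpf. In total RNA cdk9.S had 89 and 63 at 9 hpf, against 157, 128, 158 and 110 at 5 hpf (log2 -0.91 ± 0.25, adjusted p = 0.0378), opposite in sign to cdk9.L. The difference of the cdk9 copies in total RNA was 2.15 ± 0.69 (adjusted p = 0.201), and 2.15 ± 0.34 with the replicate block (adjusted p = 0.0264). The cdk1 copies did not pass as a pair: the difference was 0.06 ± 0.12 in the flowthrough (adjusted p = 0.915) and 0.47 ± 0.19 in total RNA (adjusted p = 0.359).

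**Figure D5:**
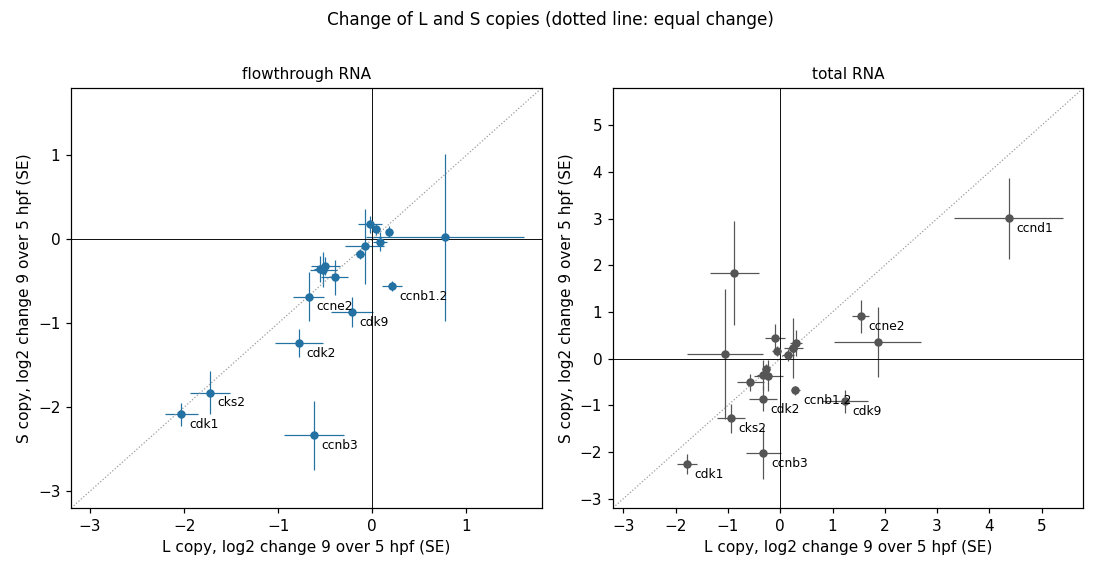
Log2 change at 9 hpf over 5 hpf of the L copy (horizontal) and the S copy (vertical) of each pair with both copies tested, in flowthrough and total RNA, with bars of 1 SE and a dotted line of equal change. The pair ccnb3 lies under the line in both, at -0.62 for L and -2.34 for S in the flowthrough, and cdk1 lies near it.

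None of the Cdks of transcription, cdk9 included, was called in flowthrough or total RNA, though cdk9.L passed in total RNA with the replicate block. In total RNA cdk12.L, cdk12.S, cdk13.L and cdk8.S had values between -0.07 and 0.17, with adjusted p of 0.43 or more. The message cdk7.L, for the kinase that activates other Cdks, had 344, 310, 301 and 280 in the flowthrough at 9 hpf, against 473, 443, 541 and 476 at 5 hpf (log2 -0.64 ± 0.09, adjusted p = 4.18e-05), under 2-fold. Among the remaining Cdks, cdk5.L, cdk10.L, cdk16.L and both cdk17 copies had flowthrough values between -0.40 and 0.35 with adjusted p over 0.05. With the replicate block adjusted p was 0.011 for cdk16.L. The members cdk14.L, cdk14.S, cdk15.L, cdk18.L, cdk18.S, cdk19.L and cdk6.S had egg means under 10.

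Related genes were taken from lists drawn up with earlier results of these data known. At 9 over 5 hpf, 5.83% of all genes were called higher and 1.43% lower on beads. In the flowthrough these shares were 0.202% and 3.94%, and in total RNA 6.25% and 2%. They stand beside every list here and below, and no list was tested against them. Of 30 other cyclins, 2 rose and 1 fell on beads at 9 hpf, 0 rose and 2 of 29 fell in the flowthrough, and 1 rose and 2 fell in total RNA. The riser in total RNA was ccng1.L, cyclin G1 (log2 7.93 ± 0.80, adjusted p = 0.000118), a p53 target in mammals, and those that fell were ccnf.S (-1.07 ± 0.14) and ccnl2.S (-1.34 ± 0.20). Among 23 tested further Cdk genes and Cdk-binding proteins, the Xenopus Cdk inhibitor gene cdknx.L rose on beads (2.91 ± 0.76, adjusted p = 0.0163) and fell in the flowthrough (-1.42 ± 0.47, adjusted p = 0.0399), and cables1.L fell on beads (-3.33 ± 1.03, adjusted p = 0.0489). In that list 0 rose and 2 fell in the flowthrough.

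The kinases and phosphatases that set Cdk1 activity gave 2 risers, both cdc25b copies, and 2 that fell among 28 on beads, 0 either way of 26 in the flowthrough, and 2 risers of 28 in total RNA. Of 31 Rb, E2F and DREAM genes, 3 rose on beads, the E2F repressor gene e2f7 in both copies (S 1.64 ± 0.38, L 1.40 ± 0.42) and rbl1.L, for the Rb relative p107 (4.41 ± 1.32), and 1 of 31 rose in total RNA, again rbl1.L (2.31 ± 0.49, adjusted p = 0.0105). Of 26 ubiquitin ligase parts, 0 rose and 3 fell in both flowthrough and total RNA. These were ube2c.L, the E2 enzyme of the anaphase-promoting complex (flowthrough -1.75 ± 0.17), its inhibitor fbxo5.S (-1.53 ± 0.17) and its activator fzr1.L (-1.12 ± 0.13).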

How the data were processed

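Per the submitters' processing notes, reads were quantified with Salmon 0.12.0 and normalized with DESeq2. The genome version was not given in the sources used here. Values of 50489 genes in 54 libraries, as deposited, were rounded after normalization and were treated as a score and not as counts, so that no count test was run. The 1 column that belongs to no library was not used. No pair of libraries held identical values (0 pairs).

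Values were put on the log2(value + 1) scale and fitted with limma 3.58.1 (trend and robust; statmod 1.5.0; R 4.3.3), for genes that reached 10 in enough libraries to fill the smallest group, with a term for experiment. P-values were adjusted over all genes tested by the Benjamini-Hochberg method, and a gene was called at adjusted p under 0.05 and at least 2-fold. A fold change on this scale understates the change of genes that are low in all libraries. Where single libraries are at 0 the change can instead be large. On beads ccnb5.L had log2 -6.36 in experiment 2 alone, with a library at 0, against -1.53 in experiment 1 alone. Changes of L and S copies were compared as differences within a library. The scripts were tested on simulated data. Figures were drawn with matplotlib 3.10.9.

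Deviations from group means of same-numbered libraries were correlated across times. All 40 flowthrough pairs (r = 0.51 to 0.73) and all 20 total RNA pairs (0.65 to 0.73) exceeded 0.1. On beads 13 of 40 pairs did (-0.06 to 0.28). Within an experiment the numbers thus pair flowthrough and total RNA libraries, which the series text describes as clutches. Differently numbered libraries of different experiments exceeded 0.1 in 40 of 80 flowthrough pairs (-0.72 to 0.74) and 8 of 16 total RNA pairs (-0.71 to 0.71). A number therefore need not mark a separate clutch.

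Members with values in every library were those called in a comparison, at most 6 per comparison by adjusted p, with their other copy and genes of the same type. Members and lists were chosen with earlier results of these data known. Alternatives were another pseudocount, no filter on low values, quantile normalization, no experiment term, a replicate block, each experiment alone, and each library left out. A term for odd against even replicate numbers, and the L and S comparisons in total and flowthrough RNA, were added after values were seen. No sequences are printed.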

Additional observations from a re-analysis of the deposited data

Results flagged for a closer look

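Of 64 groups of 4 libraries behind the called members, 2 held a library far from the other 3. Chance alone gives about 1 in 20, so this share is no higher than chance gives. The inhibitor cdkn2c.L had 1286 in bead replicate 4 at 9 hpf, while the other 3 libraries lay between 61 and 118. The kinase message cdk17.L had 0 in the same library, while the other 3 lay between 696 and 801. Without that library the bead over flowthrough value of cdk17.L was log2 -0.16, not past the test.

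The bead change and the flowthrough change between 5 and 9 hpf differed, by a direct test in limma, for cdkn2c.L (log2 difference 5.59), cdkn1a.L (6.02) and cdk9.L (2.65). Flowthrough values of cdkn2c.L and cdkn1a.L were low, so their differences mostly restate the bead rise.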

How the results depend on the processing

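The replicate block left the members called in the flowthrough (0 higher, 8 lower) and in the bead over flowthrough comparison as they were. In the flowthrough it brought adjusted p under 0.05 for further changes under 2-fold, given above. In total RNA it gave 5 members higher in place of 3, as did the odd against even term (5, added after seeing the data). With no filter on low values there were also 5, but not the same 5 as with the block. Without the filter cdk9.L was not called (adjusted p = 0.178). On beads the block exchanged cdk1.L (adjusted p = 0.0505) for cdk1.S (adjusted p = 0.0137).

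On beads, quantile normalization gave 10 members lower, dropping the experiment term 2 higher and 1 lower, and experiment 2 alone 1 higher and 1 lower, and leaving out 1 library gave 0 to 9 lower. In total RNA leaving out 1 library gave 3 to 5 lower. For bead over flowthrough at 9 hpf, no experiment term gave 6 lower, experiment 1 alone 0 lower and experiment 2 alone 4 higher, and leaving out 1 library gave 8 to 16 lower. For the bead change minus the flowthrough change, experiment 2 alone gave 0 higher and 1 lower (cdk2.S), and leaving out 1 library gave 2 to 5 higher and 0 to 2 lower. For L minus S, beads had 1 pair higher at log2(value + 10), 1 under quantile normalization, 3 in experiment 1 alone and 0 to 1 with a library left out; total RNA had 2 at log2(value + 10), 2 with the replicate block, 2 with the odd against even term, 0 in experiment 1 alone and 0 to 1 with a library left out; the flowthrough had 0 in each experiment alone. Shares of all genes called under these alternatives are not given here. The counts in this section therefore show only how calls of members shift, and are not read as results about the members. The causes were not tested, and each experiment alone has fewer libraries.

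In experiment 1 alone the bead over flowthrough sign at 9 hpf was reversed for cks2.L (0.96), cdk2.S (0.65), cdk9.S (0.16), ccnb2.S (0.12), cdk8.S (0.11), cdk7.L (0.055) and cdk17.L (0.0074). Of 845 comparisons of the 53 called results with an alternative, 683 kept the call, 155 lost it and 7 reversed. Original depth is unknown, so no counting limit is given.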
